A study of Mus musculus with 56 samples.

Results

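Liver transcripts of mice given the gapmer TS-2 for 2 weeks were compared with those of mice given vehicle over the same time. The comparison takes every array titled for TS-2 at 25 mg/kg over 2 weeks (5 arrays) and every array titled for the vehicle over 2 weeks (10 arrays), which is 15 of the 56 arrays of the series. All mice were males of CD-1, an outbred strain, and were 6 to 8 weeks old when dosing began. TS-2 is a locked nucleic acid (LNA) gapmer that the labels call toxic. It was given in DPBS, a buffered saline, and the vehicle mice received DPBS alone. Both were injected subcutaneously at 10 mL/kg on days 1, 4, 8 and 11, and livers were collected on day 14. A further 4 mice that received NTS-1, a gapmer called non-toxic, at the same dose and on the same days served as a second reference. Each array held the RNA of 1 liver, so the spread within a group is that between mice. How these livers were chosen among the dosed animals is not stated for the 2-week study, and neither sequence nor target of either gapmer appears in the sources used.

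A gapmer is a single-stranded antisense oligonucleotide with modified ends, here of locked nucleic acid, around a DNA centre. Once paired with an RNA it lets the cell's RNase H1 cut that RNA, in the nucleus as well as in the cytoplasm, so that introns of unspliced transcripts can be targets too. After subcutaneous injection such oligonucleotides collect in liver and kidney, and in the liver they enter sinusoidal endothelial cells, Kupffer cells and hepatocytes. Some LNA sequences are known to injure hepatocytes in mice, which shows as raised serum transaminases and hepatocyte death.

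Levels below are the deposited array intensities on their linear scale. They are given for the vehicle group as the lowest, median and highest of 10 mice and for TS-2 as the values of mice 1 to 5, numbered as in the labels. A log2 change is the mean log2 level of the TS-2 mice minus that of the vehicle mice. It carries the standard error (SE) that limma estimated from 1 spread shared by all groups of the fit. The spread was not equal, and the log2 standard deviation of Inmt was 2.92 in TS-2 and 0.13 in vehicle mice, that of Hsd3b5 1.83 and 0.12. Other genes varied less in TS-2 mice, such as Cadps2 (0.19 and 0.25) and Zfp24 (0.28 and 0.42), but their TS-2 levels were low, where a spread may be compressed. Where TS-2 mice varied more, the SE and adjusted p given below may be too small. A gene is said to have passed when its Benjamini-Hochberg adjusted p, taken over all 14454 genes tested, was under 0.05. Levels under 32 are called dim, and a fold against a group with any dim mouse is given as a lower limit with dim values set to 32. Between 54.3% and 57.5% of the 45101 probe sets of an array reached 32. The 3' to 5' log2 ratio of the Actb control probe sets, a sign of RNA integrity, lay between 1.41 and 1.66 in TS-2 and between 1.36 and 1.87 in vehicle mice. Correlations over all bright genes were 0.962 to 0.992 between vehicle mice, 0.938 to 0.985 between TS-2 mice and 0.896 to 0.982 between TS-2 and vehicle mice. Vehicle mouse 2 stood apart from the other vehicle mice, with 289 genes 2-fold or more below the vehicle mean and the highest Actb ratio of that group. The tissue label fitted the hepatocyte markers, which summed from 186713 to 202875 in vehicle, 194428 to 202058 in NTS-1 and 182139 to 196799 in TS-2 mice. Albumin (Alb), the main plasma protein made by hepatocytes, read 32141, 32876 and 34239 in vehicle and 32413, 31792, 32234, 32829 and 32014 in TS-2 mice and did not pass the test (log2 change -0.03 ± 0.05, adjusted p = 0.63), near the top of an array's range, where large changes of a transcript may not be measurable.

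TS-2 changed a large share of the liver transcriptome. Of the 14454 genes tested 5405 passed (37.4%), 3301 of them higher (22.8%) and 2104 lower (14.6%) after TS-2. Counts of list members below are to be read beside these 2 shares of all genes. The excess of rises depended on normalization: 61.1% of the calls were higher, against 52.6% after quantile normalization and 67.6% with all arrays shifted to 1 median. The changes were mostly small, with 473 genes at least 2-fold higher and 365 at least 2-fold lower, and 34 and 56 at least 4-fold. The median change over all genes was -0.01 on the log2 scale. All 5 TS-2 mice moved the same way relative to the vehicle mean in 4810 of the 5405 genes. Groups did not overlap in 1651 genes (11.4% of all tested), and 1646 of these passed. The TS-2 mice differed among themselves: 150 genes in mouse 1, 538 in mouse 2, 366 in mouse 3, 896 in mouse 4 and 1429 in mouse 5 lay 2-fold or more above the vehicle mean, and 141, 547, 210, 705 and 726 lay as far below it. Mouse 1 was thus the least and mice 4 and 5 the most changed in both directions. Leaving out 1 TS-2 or vehicle mouse left between 4450 and 5681 genes past the test.

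Mtss1, Cadps2, Cxadr and Zfp24 lay more than 4-fold below the vehicle mean in every TS-2 mouse. Mtss1, an actin- and membrane-binding scaffold protein on chromosome 15, read 691, 1099 and 1431 in vehicle mice and 73.4, 30.4, 45.7, 18.1 and 76.8 in TS-2 mice. It was at least 21.2-fold lower (log2 change -4.59 ± 0.27, adjusted p = 9.0e-10). The groups lay far apart, and mice 1 and 5, the least and the most changed by their counts of genes, were the highest of the 5. Cadps2, which primes dense-core vesicles for release, read 364, 437 and 620.4 in vehicle and 27.6, 23.6, 23.3, 24.4 and 19.2 in TS-2 mice. All 5 TS-2 mice were dim, at least 14.1-fold below vehicle (log2 change -4.27 ± 0.12, adjusted p = 1.5e-15). The range over the 5 mice was 0.52 on the log2 scale, all among dim levels, where a range may be compressed. Cxadr, the tight-junction adhesion protein also used as a receptor by coxsackie and adenoviruses, read 163, 367 and 489 in vehicle and 55.8, 16.2, 30.4, 22.7 and 22.8 in TS-2 mice. It was at least 9.75-fold lower (log2 change -3.69 ± 0.25, adjusted p = 7.8e-09), and the lowest vehicle mouse was mouse 2. Zfp24, a zinc finger transcription factor, read 190.4, 441 and 502 in vehicle and 46.3, 36.4, 49.9, 35.3 and 31.6 in TS-2 mice, at least 10.2-fold lower (log2 change -3.35 ± 0.18, adjusted p = 2.6e-10), with a range of 0.66 over the 5 mice.

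These genes belong to a list of 7 that earlier results of these data had shown to be lower 72 h after 1 TS-2 dose, so their fall at 2 weeks is not independent evidence of its direction. The other members, Met, Tmf1 and Myo1e, are named here because of that list and with their values known. Met, the receptor of hepatocyte growth factor, read 624, 826 and 985 in vehicle and 117, 89.1, 79.8, 155 and 169 in TS-2 mice, 6.99-fold lower (log2 change -2.81 ± 0.16, adjusted p = 9.0e-10). Tmf1, a Golgi protein, was at least 4.50-fold lower (log2 change -2.45 ± 0.16, adjusted p = 4.0e-09), at 73.3, 155 and 182 in vehicle and 32.6, 24.7, 20.8, 28.9 and 26.5 in TS-2 mice. Myo1e, a class I myosin, read 231, 285 and 392 in vehicle and 78.5, 99.3, 73.5, 86.6 and 48.6 in TS-2 mice, 3.87-fold lower (log2 change -1.95 ± 0.15, adjusted p = 2.8e-08). TS-2 and vehicle mice did not overlap in any of the 7 genes, against 11.4% of all genes tested. All 7 also passed as lower than in NTS-1 mice, against 6.93% of all genes. Because of how the list was made, these counts are not separate support. The median change over the list was -3.35, and in mice 1 to 5 it was -2.80, -3.47, -3.36, -3.51 and -3.67. The per-mouse change ranged over 0.65 for Tmf1, 1.03 for Myo1e, 1.08 for Met, 1.79 for Cxadr and 2.08 for Mtss1 on the log2 scale. Tmf1 was dim in all TS-2 mice but mouse 1, so its range may be compressed. At 72 h after a single dose (4 TS-2 and 3 vehicle mice, other animals in a fit of their own, for which the labels say that the 3 or 4 livers scored highest for hypertrophy were taken) the log2 changes were -2.72 for Mtss1, -3.72 for Cadps2, -2.20 for Cxadr, -2.34 for Zfp24 and -2.30 for Met.

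The other 8 of the 12 largest falls were not on that list, and their per-mouse changes ranged over 2.10 (Vps13b) to 7.71 (Inmt) on the log2 scale, the least of which is close to the 2.08 of Mtss1. Inmt, which methylates indolethylamines, read 11806, 14068 and 15985 in vehicle and 10418, 1857, 3678, 831 and 49.9 in TS-2 mice (log2 change -3.48 ± 0.72, adjusted p = 8.0e-04). Mouse 1 lay just under the vehicle group and mouse 5 was nearly dim, the widest range of the 8. Dpyd, the enzyme that starts the breakdown of uracil, thymine and fluorouracil, read 3425, 5453 and 6358 in vehicle and 3223, 457, 1664, 102 and 294 in TS-2 mice (log2 change -3.15 ± 0.51, adjusted p = 7.7e-05), a range of 4.98. Fhit, a diadenosine triphosphate hydrolase encoded across a fragile site, read 327, 542 and 959.8 in vehicle and 217, 23.7, 75.9, 27.9 and 28.4 in TS-2 mice, at least 9.85-fold lower (log2 change -3.46 ± 0.38, adjusted p = 2.0e-06). Mouse 1 was the highest of the 5 in each of these genes and mouse 3 the second highest. Memo1, a mediator of cell motility, read 918, 1153 and 1589 in vehicle and 211, 58.4, 115, 29.9 and 70.7 in TS-2 mice, at least 14.3-fold lower (log2 change -3.85 ± 0.28, adjusted p = 2.1e-08). Sntb1, a syntrophin of the dystrophin complex, read 131, 365 and 498 in vehicle and 105, 19.5, 45.2, 10.4 and 12.6 in TS-2 mice, at least 7.96-fold lower (log2 change -3.73 ± 0.41, adjusted p = 2.0e-06). Vps13b, a lipid transfer protein of the Golgi, was at least 8.07-fold lower (log2 change -3.20 ± 0.23, adjusted p = 1.4e-08), at 235 to 449.9 in vehicle and 73.6, 30.9, 40.8, 17.2 and 35.2 in TS-2 mice. Rmdn1, a microtubule-associated protein, and Dera, the deoxyribose-phosphate aldolase, were likewise highest in mouse 1 and next highest in mouse 3. Rmdn1 read 909 to 2537 in vehicle and 646, 148, 365, 107 and 117 in TS-2 mice (log2 change -3.12 ± 0.32, adjusted p = 1.3e-06). Dera read 1913 to 2524 in vehicle and 884, 206, 502, 145 and 173 in TS-2 mice (log2 change -2.94 ± 0.29, adjusted p = 7.4e-07). At 72 h the log2 changes of these genes were -0.05 for Inmt, -0.28 for Rmdn1, -0.37 for Dera, -0.57 for Fhit, -0.60 for Dpyd, -0.79 for Sntb1, -0.87 for Memo1 and -1.01 for Vps13b.

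**Figure D1:**
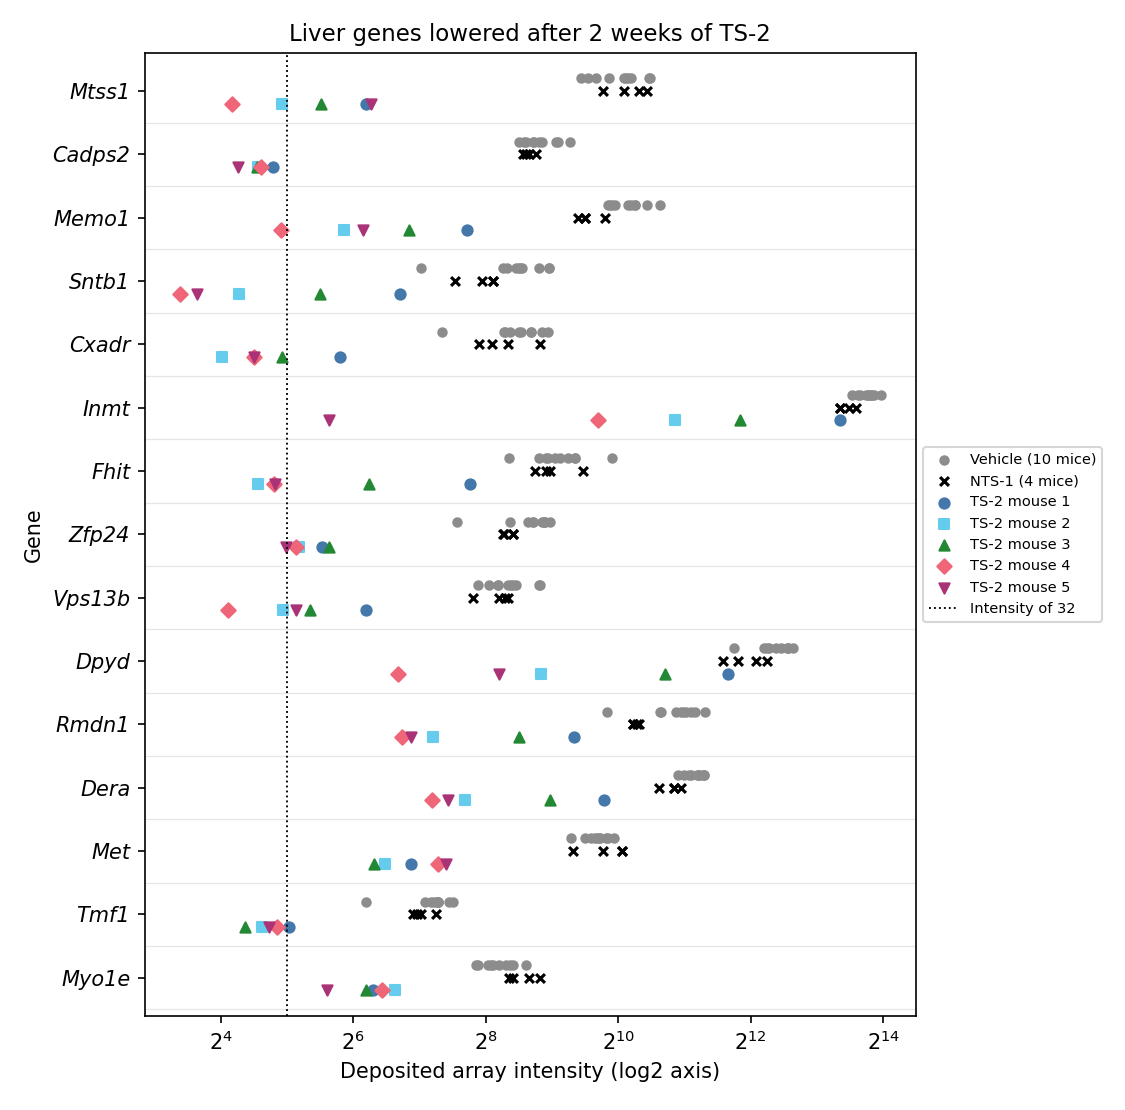
Deposited array intensity on a log2 axis of the 12 genes with the largest falls and of Met, Tmf1 and Myo1e, with 1 point per mouse for vehicle (10 mice), NTS-1 (4 mice) and TS-2 (5 mice), and a dotted line at an intensity of 32. Points of the TS-2 mice lie close together for Cadps2, Zfp24 and Tmf1 and are spread widely for Inmt, where mouse 1 read 10418 and mouse 5 49.9. The TS-2 levels of Cadps2 were all dim, those of Tmf1 mostly dim and those of Zfp24 near 32, where a range may be compressed.

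These falls are read from the probe set with the highest mean of each gene, and other probe sets of the same gene often gave smaller changes. For Mtss1, 3 of 5 other probe sets had the opposite sign, at 0.49, 0.16 and 0.35. Averaged over all probe sets of a gene, the log2 changes were -1.31 for Mtss1, -1.68 for Cxadr, -1.42 for Zfp24, -1.40 for Tmf1, -0.64 for Myo1e, -2.16 for Sntb1, -1.09 for Vps13b, -0.81 for Rmdn1 and -1.46 for Dera. Cxadr changed by -1.70 with the probe set that was highest on the 2-week arrays. All of these kept the direction and passed the test. Of the genes described below, averaging over probe sets brought the log2 change to 0.66 for Anxa2, 0.59 for Laptm5, 0.88 for Cdc20, 0.83 for Col1a2, 0.88 for Cd36, 0.57 for Mcm5, 0.61 for Ncl, 0.48 for Nucks1, 0.46 for Sfpq, -0.69 for Socs2, -0.68 for Clec4g, -0.75 for Fcgr2b and 0.68 for Apob, all of which still passed. The probe set highest on the 2-week arrays gave -1.89 for Cyp2b10, 1.49 for Klf6 and 0.54 for Mthfd2.

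Genes that span a long stretch of the genome were more often lower. Span is the distance from the first to the last base of a gene in the GRCm38.p6 annotation, known for 99.4% of the genes tested. Among genes spanning 300 kb or more, 28.8% of 344 were lower and 5.23% were higher after TS-2, against 15.1% lower of 4037 genes under 10 kb, 13.5% of 4717 from 10 to 30 kb, 12.5% of 3861 from 30 to 100 kb and 18.8% of 1412 from 100 to 300 kb. The share higher was 17.2%, 26.2%, 27.5% and 20.3% in those 4 shorter classes. Long genes had lower levels, with a median vehicle level of 65.5 in the longest class and 111 to 155 in the others. Among genes with a vehicle mean of at least 32 the share lower was 31.8% of 292 in the longest class. The median span was 21.3 kb over all genes tested, 31.1 kb for those lower by 2-fold or more and 38.1 kb for those lower by 4-fold or more. Of the last, 20 of 55 spanned at least 100 kb (36.4%), against 12.2% of all genes tested and 17.4% of all genes called lower. Of the 12 largest falls 7 spanned at least 100 kb, among them Fhit, which with 1612 kb was the longest, and the shortest was Inmt with 4.36 kb. None of the 12 largest rises did, and their median was 12.4 kb. Over the alternative settings and single mice left out, at least 20.9% of the longest class were lower, 1.81 to 2.39 times the share over all genes. Genes are not independent replicates, and no test was made across them.

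**Figure D2:**
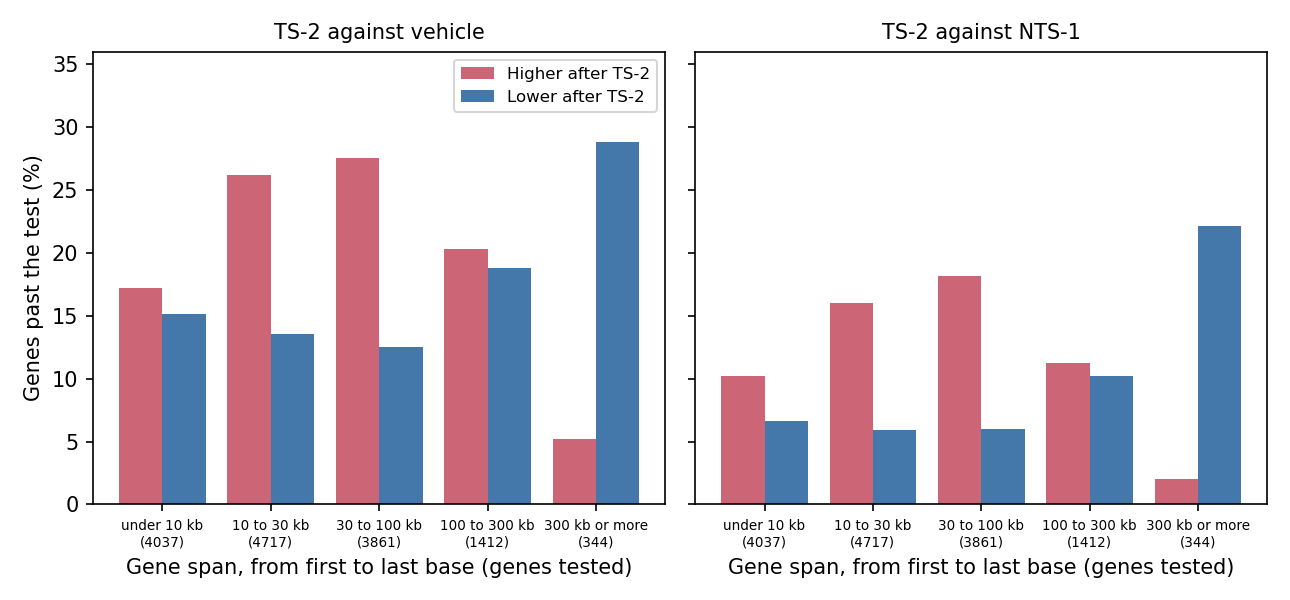
Bars give the percent of genes past the test that were higher or lower after TS-2, against vehicle on the left and against NTS-1 on the right, by the span of the gene, with the number of genes tested in each class. In the class of 300 kb or more the share lower (28.8% against vehicle, 22.1% against NTS-1) exceeds the share higher (5.23% and 2.03%), and in the 4 shorter classes the share higher is the larger in both comparisons.

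The 12 largest rises among genes whose groups did not overlap were mostly lowest in mouse 1 and highest in mice 4 and 5. Lcn2, lipocalin 2, an iron-siderophore binding protein of the acute phase, read 29.2, 47.0 and 68.5 in vehicle and 84.4, 542, 251, 1573 and 12107 in TS-2 mice, at least 15.4-fold higher (log2 change 3.96 ± 0.82, adjusted p = 8.0e-04). Mouse 5 was far above the others, yet every TS-2 mouse lay above every vehicle mouse, and 1 of the NTS-1 mice reached 1302. Slc13a3, a sodium-coupled dicarboxylate transporter, read 117, 154 and 214 in vehicle and 375, 1226, 799, 1696 and 2648 in TS-2 mice (log2 change 2.83 ± 0.31, adjusted p = 2.0e-06, 1.24 averaged over its probe sets). Nudt18, a hydrolase of oxidised nucleotides, read 235, 287 and 318 in vehicle and 685, 2279, 845, 3666 and 2782 in TS-2 mice, 5.94-fold higher (log2 change 2.57 ± 0.28, adjusted p = 1.8e-06). Mice 1 and 3 were lowest. The gene 2010003K11Rik, named here only by its clone, read 197, 295 and 367 in vehicle and 620.2, 3194, 849, 4189 and 4024 in TS-2 mice (log2 change 2.77 ± 0.35, adjusted p = 7.1e-06). Alas1, which makes the first intermediate of haem, read 243, 472 and 1404 in vehicle and 4693, 3376, 1863, 3062 and 3964 in TS-2 mice, 5.65-fold higher (log2 change 2.50 ± 0.37, adjusted p = 4.1e-05). Unlike the others it was highest in mouse 1. Ly6d, a GPI-anchored surface protein, read 48.5, 56.4 and 64.1 in vehicle and 78.5, 117, 194, 414 and 4355 in TS-2 mice (log2 change 2.49 ± 0.57, adjusted p = 0.0018), and the change was 1.55 without mouse 5.

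Of the rest of the 12, Tuba8, Mknk2, Mvp and Tgm1 were again lowest in mouse 1 or mouse 3. Tuba8, an alpha-tubulin, read 47.4 to 67.0 in vehicle and 89.3, 409.6, 118, 486 and 827 in TS-2 mice (log2 change 2.31 ± 0.35, adjusted p = 4.8e-05). Mknk2, a kinase of the translation factor eIF4E, read 657 to 1498 in vehicle and 2392, 5896, 1925, 6705 and 7534 in TS-2 mice (log2 change 2.19 ± 0.27, adjusted p = 7.1e-06), lowest in mouse 3. Mvp, the major vault protein, read 271 to 348 in vehicle and 611, 1426, 743, 2339 and 4069 in TS-2 mice (log2 change 2.19 ± 0.29, adjusted p = 1.2e-05). Tgm1, a transglutaminase, read 61.6 to 104 in vehicle and 158, 484, 243, 504 and 422 in TS-2 mice (log2 change 2.17 ± 0.21, adjusted p = 8.3e-07). Usp18 and Ifit1, the other two, are described with the interferon-stimulated genes.

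**Figure D3:**
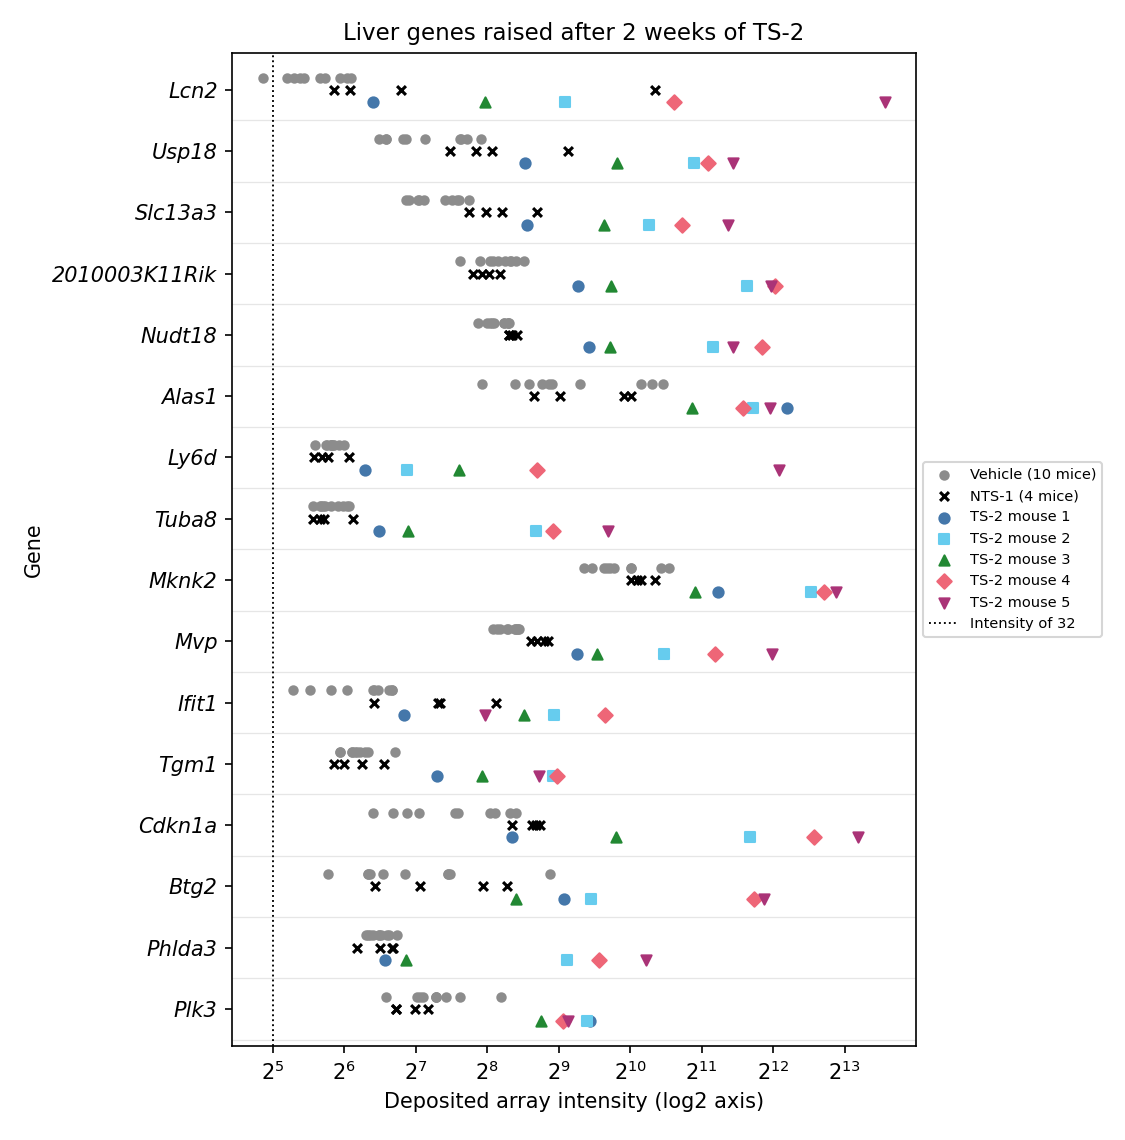
Deposited array intensity on a log2 axis of the 12 genes with the largest rises and of the p53 targets Cdkn1a, Btg2, Phlda3 and Plk3, with 1 point per mouse of each group and a dotted line at an intensity of 32. In the 12 genes, and in Plk3, every TS-2 mouse lies above every vehicle mouse, while 1 TS-2 mouse falls within the vehicle range in Cdkn1a, Btg2 and Phlda3. For Ly6d mouse 5 read 4355 and the other TS-2 mice 78.5 to 414.

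Targets of p53, the transcription factor that answers DNA damage and other stress, rose as a group. Of 23 tested targets 17 rose and 1 fell, with a median change of 0.64, while 22.8% of all genes rose. Cdkn1a, the cyclin-dependent kinase inhibitor p21, read 84.6, 190.4 and 338 in vehicle and 325, 3282, 896, 6092 and 9349 in TS-2 mice, 12.3-fold higher (log2 change 3.62 ± 0.56, adjusted p = 5.9e-05). Mouse 1 lay within the vehicle range and the other 4 above it. The antiproliferative factor Btg2 read 54.7, 104 and 469 in vehicle and 538, 702, 339, 3400.2 and 3761 in TS-2 mice, 8.96-fold higher (log2 change 3.16 ± 0.55, adjusted p = 1.5e-04), and mouse 3 lay within the vehicle range. Phlda3, an inhibitor of Akt, read 78.8 to 107 in vehicle and 94.7, 556, 117, 760.0 and 1199 in TS-2 mice (log2 change 1.98 ± 0.42, adjusted p = 8.8e-04). Plk3, a polo-like kinase, was raised evenly, at 95.7, 156 and 293 in vehicle and 693, 673, 433, 536 and 562 in TS-2 mice (log2 change 1.87 ± 0.18, adjusted p = 7.9e-07). Mdm2, the ubiquitin ligase that degrades p53, rose by less (log2 change 0.64 ± 0.20, adjusted p = 0.014), read 169, 285, 194, 393 and 520.2 against 151 to 252 in vehicle, and did not pass without mouse 4 (0.52) or mouse 5 (0.42). Nor did Mdm2 pass averaged over its probe sets (0.34, adjusted p = 0.062 in the limma fit), with the probe set highest on the 2-week arrays (0.41, adjusted p = 0.14) or with vehicle mice 6 to 10 as the only controls (0.50, adjusted p = 0.16). The median over the list was 0.10, 0.92, 0.27, 1.10 and 1.503 in mice 1 to 5.

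Immediate early and cell death genes rose in part. Of 17 immediate early and Myc genes 6 rose (35.3%, against 22.8% of all genes) and none fell by the limma test (0 fell at an unadjusted p under 0.05). Klf6, a zinc finger factor induced by injury, read at most 67.4 in vehicle and 37.3, 388, 117, 740.2 and 557 in TS-2 mice (log2 change 2.36 ± 0.47, adjusted p = 5.6e-04). Jun, a subunit of AP-1, read 50.6 to 733 in vehicle and 511, 1276, 796, 2352 and 1735 in TS-2 mice (log2 change 2.15 ± 0.60, adjusted p = 0.0077), with mouse 1 within the vehicle range and mouse 3 just above it. Jund read 383 to 789.8 in vehicle and 1145, 2569, 1609, 3343 and 3305 in TS-2 mice (log2 change 1.96 ± 0.23, adjusted p = 3.5e-06), although its other probe set changed by -0.10. Of 23 genes of apoptosis, necroptosis and pyroptosis 11 rose (47.8%) and 1 fell (4.35%), against 22.8% and 14.6% of all genes. Tnfrsf12a, the receptor of the cytokine TWEAK, rose most in mice 4 and 5, at 252, 386, 296, 1448 and 1604 against 184 to 292 in vehicle (log2 change 1.33 ± 0.33, adjusted p = 0.0032). Traf2, an adaptor of TNF receptors, fell (log2 change -1.10 ± 0.18, adjusted p = 8.1e-05).

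Of 18 genes of G2 and mitosis 10 rose (55.6%, against 22.8% of all genes) and none fell by the limma test (1 fell at an unadjusted p under 0.05), with a median of 0.42. Ccnd1, cyclin D1, which drives entry into the cycle, read 195, 261 and 460.1 in vehicle and 647, 879.9, 856, 2055 and 1758 in TS-2 mice, 4.01-fold higher (log2 change 2.00 ± 0.27, adjusted p = 1.7e-05), with mice 4 and 5 highest. Mki67, the proliferation marker Ki-67, was dim in all vehicle mice and read 28.4, 26.4, 37.2, 53.9 and 136 in TS-2 mice (log2 change 0.89 ± 0.25, adjusted p = 0.0076, 0.50 without mouse 5). Cdc20, an activator of the anaphase-promoting complex, rose (log2 change 1.38 ± 0.27, adjusted p = 5.2e-04) but changed by 0.15 and did not pass with the probe set highest on the 2-week arrays. Of 22 genes of DNA replication 7 rose (31.8%) and 3 fell (13.6%), against 22.8% and 14.6% of all genes. Mcm5, of the replicative helicase, read 51.9 to 111 in vehicle and 80.6, 170.3, 154, 310.4 and 361 in TS-2 mice (log2 change 1.24 ± 0.25, adjusted p = 5.9e-04). Tk1, thymidine kinase, fell in all 5 mice, at 382, 209, 274, 126 and 170.2 against 534 to 852 in vehicle (log2 change -1.63 ± 0.17, adjusted p = 1.4e-06).

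Targets of NRF2, the transcription factor of the antioxidant response, rose in 14 of 22 members (63.6%) and fell in 2 (9.09%), against 22.8% and 14.6% of all genes. The median change was 0.60, with values of 0.31, 0.60, 0.31, 0.92 and 0.54 in mice 1 to 5. Srxn1, which repairs overoxidised peroxiredoxins, read 239, 327 and 365 in vehicle and 577, 1398, 696, 3482 and 2112 in TS-2 mice, 4.24-fold higher (log2 change 2.08 ± 0.29, adjusted p = 2.3e-05). Nqo1, the quinone reductase used as the standard marker of this response, read 59.4, 91.5 and 117 in vehicle and 133, 324, 109.9, 619.8 and 215 in TS-2 mice (log2 change 1.37 ± 0.28, adjusted p = 7.0e-04). Mouse 3 lay within the vehicle range and mouse 4 highest. Gstm3, a glutathione transferase, read 3597 to 7888 in vehicle and 8383, 22230.0, 14084, 23961 and 23253 in TS-2 mice (log2 change 1.74 ± 0.21, adjusted p = 4.8e-06). Cbr3, a carbonyl reductase, read 50.3 to 77.1 in vehicle and 64.3, 216, 73.5, 381 and 242 in TS-2 mice (log2 change 1.29 ± 0.29, adjusted p = 0.0017), with mice 1 and 3 inside the vehicle range. Probe sets of near-identical family members, such as the glutathione transferases, the Cyp2c enzymes and Saa1 and Saa2, can read each other's transcripts.

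Of 23 genes of conjugation and transport 9 rose (39.1%) and 6 fell (26.1%), against 22.8% and 14.6% of all genes. Of 22 cytochrome P450 genes of drug metabolism 3 rose (13.6%) and 10 fell (45.5%), with a median of -0.22. The count of lower P450 genes was 6 without mouse 5, and that of higher ones was 1 without mouse 2 or mouse 4. Gstm2 read 895 to 1495 in vehicle and 2039.7, 7009.8, 3015, 8900.4 and 7808 in TS-2 mice, 4.30-fold higher (log2 change 2.11 ± 0.26, adjusted p = 6.9e-06). Abcb1a, a P-glycoprotein drug pump, was raised to 584 and 497 in mice 4 and 5 and stayed at 33.6 to 57.9 in the others, against 18.97 to 34.8 in vehicle (log2 change 2.05 ± 0.52, adjusted p = 0.0041). Cyp2b10, the standard target of the receptor CAR, read 176, 345 and 799.9 in vehicle and 51.6, 28.7, 30.9, 65.1 and 107 in TS-2 mice, at least 7.24-fold lower (log2 change -2.90 ± 0.34, adjusted p = 4.5e-06). All 5 lay below every vehicle mouse, and NTS-1 mice read 271 to 740.0. Cyp2c54 fell in all 5 mice and most in mouse 5, at 4227 to 8479 in vehicle and 3664, 2629, 2918, 1511 and 598 in TS-2 mice (log2 change -1.72 ± 0.28, adjusted p = 9.9e-05). Its neighbour in family Cyp2c50 fell likewise (log2 change -1.54 ± 0.29, adjusted p = 3.2e-04), whereas Cyp2c39 rose (log2 change 1.25 ± 0.37, adjusted p = 0.011), at 2682, 4895, 922, 5973 and 3763 against 691 to 2538 in vehicle, with mouse 3 within the vehicle range. Cyp3a11, the main murine enzyme of its subfamily, lay in the upper part of the array range at 19299, 18097, 19274, 18119 and 18425 against 19850.0 to 21505 in vehicle. Its small fall (log2 change -0.14 ± 0.05, adjusted p = 0.045) did not pass under 18 of 28 alternative settings, single mice left out among them. Cyp4a14, a target of PPAR-alpha, varied from 434 to 5508 in vehicle and 177 to 3217 in TS-2 mice and did not pass (log2 change 0.02 ± 0.67, adjusted p = 0.98).

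Interferon-stimulated genes, which type I interferon induces against viruses, were higher after 2 weeks of TS-2. Of 26 tested members 20 rose (76.9%, against 22.8% of all genes) and none fell by the limma test (0 fell at an unadjusted p under 0.05), with a median of 0.85. Usp18, a protease that removes ISG15 and dampens the interferon receptor, read 89.5, 128 and 241 in vehicle and 370.3, 1907, 898, 2189 and 2771 in TS-2 mice, 9.31-fold higher (log2 change 3.22 ± 0.39, adjusted p = 5.1e-06). Ifit1, which binds viral RNA, read 39.1, 85.0 and 102 in vehicle and 114, 487, 364, 802 and 251 in TS-2 mice, 4.55-fold higher (log2 change 2.18 ± 0.36, adjusted p = 8.8e-05). In both genes mouse 1 was lowest and mouse 4 or 5 highest, and TS-2 and vehicle mice did not overlap. Igtp, an immunity-related GTPase, was raised more evenly, at 562 to 1027 in vehicle and 1638, 2578, 1873, 1879 and 3095 in TS-2 mice (log2 change 1.57 ± 0.17, adjusted p = 1.6e-06). Zbp1, a sensor of Z-form nucleic acid, read 75.6 to 196 in vehicle and 146, 433, 288, 545 and 759.9 in TS-2 mice (log2 change 1.74 ± 0.29, adjusted p = 1.2e-04). The chemokine Cxcl10 read 40.7 to 65.8 in vehicle and 46.1, 54.9, 110.2, 183 and 108 in TS-2 mice, with mice 3 to 5 above the vehicle range and mice 1 and 2 within it (log2 change 0.79 ± 0.22, adjusted p = 0.0084). The median of the list was 0.08, 0.89, 0.89, 1.20 and 0.95 in TS-2 mice 1 to 5, lowest in mouse 1. In NTS-1 mice the list median was 0.23 above vehicle, and 7 of the 26 members were higher after TS-2 than after NTS-1, against 14.1% of all genes.

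The promoters of Ifit1 and Igtp are shown because they carry the interferon-stimulated response element, the motif bound by interferon regulatory factors, near the start of genes that rose in every TS-2 mouse. The element was searched as GAAANNGAAA on both strands in windows from 250 bases before to 50 bases after each annotated start, from RefSeq sequences on GRCm38.p6, and may overlap other motifs. Capitals mark each match, read 5′ to 3′ on the + strand over the 250 bases before the start.
Ifit1 (chr19:34640639-34640888): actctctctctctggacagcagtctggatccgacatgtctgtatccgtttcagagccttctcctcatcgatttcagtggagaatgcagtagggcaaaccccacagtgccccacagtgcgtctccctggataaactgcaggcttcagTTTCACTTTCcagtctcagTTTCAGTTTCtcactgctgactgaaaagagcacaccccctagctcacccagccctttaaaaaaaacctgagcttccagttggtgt
Igtp (chr11:58199306-58199555): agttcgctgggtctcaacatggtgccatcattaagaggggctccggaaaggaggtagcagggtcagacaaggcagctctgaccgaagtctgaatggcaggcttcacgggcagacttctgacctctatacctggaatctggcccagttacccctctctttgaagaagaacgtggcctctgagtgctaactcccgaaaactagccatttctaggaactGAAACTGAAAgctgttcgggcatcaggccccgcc
Ifit1 holds 2 matches and Igtp 1 in this stretch. Of the 17 members called higher that had a window, 11 held the letters in at least 1 window, as did 3 of 4 members not called, against 3.44% of 32851 windows and 3.99% of all genes with a window. For NRF2 targets the antioxidant response element, searched as TGACNNNGC on both strands, was found in 5 of 12 members called higher and 2 of 5 others, against 12.4% of all windows and 14% of all genes with a window. The heat shock element, searched as GAANNTTCNNGAA on both strands, was found in 2 of 8 heat shock and chaperone genes called higher and 1 of 2 others, against 0.603% of windows and 0.662% of genes. Usp18 and Zbp1 had no entry. A match describes letters in a window and not binding.

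Heat shock and cytosolic chaperone genes rose in 10 of 12 members (83.3%, against 22.8% of all genes) and none fell by the limma test (0 fell at an unadjusted p under 0.05). Their median was 0.81, with values of 0.84, 0.63, 0.83, 0.75 and 0.68 in mice 1 to 5. Hspb1, the small heat shock protein Hsp27, read 264, 535 and 895 in vehicle and 1620.1, 1682, 1409, 2099 and 1903 in TS-2 mice, 3.36-fold higher (log2 change 1.75 ± 0.23, adjusted p = 1.4e-05). Hsph1, of the Hsp110 family, read 406 to 1042 in vehicle and 1680.3, 1080.0, 2167, 829 and 1540.4 in TS-2 mice (log2 change 1.27 ± 0.26, adjusted p = 8.3e-04), and mouse 4 lay within the vehicle range. Bag3, a cochaperone of Hsp70, read 281 to 602 in vehicle and 614, 741, 1085, 695 and 876 in TS-2 mice (log2 change 1.11 ± 0.18, adjusted p = 6.6e-05). The inducible Hsp70 gene Hspa1a was high in mice 1 and 3, at 312, 64.1, 269.9, 91.8 and 69.1 against 27.9 to 88.4 in vehicle (log2 change 1.10 ± 0.37, adjusted p = 0.024), and did not pass without mouse 1 (0.78) or mouse 3 (0.83). NTS-1 mice overlapped TS-2 mice for Hsph1, Bag3 and Hspa1a but not for Hspb1, and 5 of the 12 were higher after TS-2 than after NTS-1, against 14.1% of all genes.

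Of 20 genes of the integrated stress response, which attenuates translation under stress, 6 rose (30%) and 1 fell, near the 22.8% of all genes that rose. Atf3, a stress-induced repressor, read 56.1, 68.0 and 99.0 in vehicle and 89.2, 163, 114, 404 and 974 in TS-2 mice (log2 change 1.76 ± 0.38, adjusted p = 0.0013), with mouse 1 within the vehicle range. Cebpb, a factor of the acute phase and of stress, was raised in all 5 mice, at 643 to 1431 in vehicle and 2306, 2891, 2199, 1922 and 4182 in TS-2 mice (log2 change 1.47 ± 0.18, adjusted p = 7.1e-06). Mthfd2, a mitochondrial folate enzyme, read 26.3 to 39.1 in vehicle and 74.3, 68.4, 72.3, 53.4 and 122 in TS-2 mice, at least 2.24-fold higher (log2 change 1.25 ± 0.15, adjusted p = 5.1e-06). Asns, asparagine synthetase, read 26.2, 36.7, 9.79, 139.5 and 422 against 11.1 to 76.5 in vehicle and did not pass (log2 change 1.39 ± 0.63, adjusted p = 0.092), but did without TS-2 mouse 3 (2.02) or vehicle mouse 9 (1.59). Of 21 genes of folding in the endoplasmic reticulum (ER) 5 rose (23.8%, again near the 22.8% of all genes) and 1 fell, with 3 higher without mouse 3 and 9 without mouse 4. Hspa5, the ER chaperone BiP, read 10049, 7292, 10169.5, 4620.3 and 7117 against 4488 to 7006 in vehicle and did not pass (log2 change 0.37 ± 0.17, adjusted p = 0.087), although it did without mouse 4 (0.55).

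Acute phase genes, which the liver makes under cytokine control, rose in 14 of 26 members (53.8%, against 22.8% of all genes) and fell in 1, with a median of 0.45. The list median was 0.12, 0.28, 0.37, 0.23 and 1.33 in mice 1 to 5, highest in mouse 5. Orm2, an orosomucoid, read 45.2, 80.6 and 137 in vehicle and 82.4, 427, 516, 3147 and 6853 in TS-2 mice, 10.3-fold higher (log2 change 3.36 ± 0.88, adjusted p = 0.0049), with mouse 1 inside the vehicle range. Socs3, the feedback inhibitor of interleukin-6 signalling, read 34.8 to 222 in vehicle and 391, 162, 225, 241 and 2101 in TS-2 mice (log2 change 2.17 ± 0.53, adjusted p = 0.0032). Saa1, serum amyloid A1, read 1453, 2349 and 3869.6 in vehicle and 2873, 4143, 8766, 3989 and 18312 in TS-2 mice (log2 change 1.35 ± 0.43, adjusted p = 0.018), and did not pass without mouse 3 (1.21) or mouse 5 (0.95). Saa2 read 253 to 744 in vehicle and 563, 930.0, 2329, 1059 and 11745 in TS-2 mice (log2 change 2.05 ± 0.62, adjusted p = 0.013), and did not pass without mouse 5 (1.36). Saa1 reached 2059 to 16451 in NTS-1 mice, where TS-2 mouse 5 read 18312. Hamp, the iron hormone hepcidin, read 13779.6, 15641, 11988, 13903 and 16788 against 9664 to 16121 in vehicle and did not pass (log2 change 0.12 ± 0.12, adjusted p = 0.46). Of 19 cytokines, chemokines and NF-kappaB targets 5 rose (26.3%, near the 22.8% of all genes) and 1 fell. Icam1, an adhesion molecule for leukocytes, read 95.5 to 147 in vehicle and 176, 198, 245, 276 and 631 in TS-2 mice (log2 change 1.16 ± 0.20, adjusted p = 1.4e-04). Ccl6, a chemokine of myeloid cells, was 3139 in mouse 5 and 92.6 to 330.5 in the others, against 40.9 to 247 in vehicle (log2 change 2.02 ± 0.54, adjusted p = 0.0059, 1.25 without mouse 5).

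Nuclear proteins known to bind gapmers, and parts of the paraspeckle, a nuclear body, rose in 13 of 21 members (61.9%) and fell in 2 (9.52%), with a median of 0.48. Ncl, nucleolin, read 561, 927 and 1245 in vehicle and 1394, 1975, 1665, 2059.6 and 2327 in TS-2 mice, 2.02-fold higher (log2 change 1.01 ± 0.17, adjusted p = 1.4e-04), with the groups apart. Nucks1, a chromatin-associated phosphoprotein, read 921 to 1654 in vehicle and 1936, 3126, 2336, 2937 and 3776 in TS-2 mice (log2 change 0.97 ± 0.15, adjusted p = 7.1e-05), and Sfpq, a core paraspeckle protein, read 84.8 to 372 and 409.9, 325, 526, 331 and 579 (log2 change 0.90 ± 0.26, adjusted p = 0.0097). For each of Nucks1 and Sfpq 1 of 5 other probe sets had the opposite sign. Anxa2, a membrane-binding annexin that also takes part in oligonucleotide trafficking, read 311 to 505 in vehicle and 378, 1229.6, 893, 2427 and 3219.9 in TS-2 mice (log2 change 1.66 ± 0.33, adjusted p = 5.7e-04), with mouse 1 within the vehicle range. Rnaseh1, the enzyme through which gapmers act, stayed at 88.7, 92.7, 90.1, 90.0 and 98.5 against 88.6 to 113 in vehicle and did not pass (log2 change -0.08 ± 0.07, adjusted p = 0.39). Of 22 genes of RNase H and RNA decay 8 rose (36.4%) and 2 fell (9.09%), against 22.8% and 14.6% of all genes. Among 24 genes of oligonucleotide uptake 7 rose (29.2%) and 3 fell (12.5%), near the shares of all genes. The deepest fall in that list was that of Mrc1, the mannose receptor of sinusoidal cells and macrophages, at 382, 678 and 884 in vehicle and 85.4, 86.8, 112, 84.2 and 223 in TS-2 mice, 5.90-fold lower (log2 change -2.56 ± 0.23, adjusted p = 2.6e-07). Mrc1 was also low in NTS-1 mice, at 172 to 274, and lower still after TS-2 than after NTS-1 (log2 difference -1.09 ± 0.28, adjusted p = 0.011).

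Genes of bile acid synthesis and transport fell more often than they rose, with 8 of 18 lower (44.4%) and 2 higher (11.1%), against 14.6% and 22.8% of all genes. The median was -0.47, and only 1 member was higher without mouse 4 or mouse 5. Cyp8b1, which sets the share of cholic acid, read 4089.6, 5752 and 7561 in vehicle and 4980.3, 1282, 4373, 376 and 56.8 in TS-2 mice (log2 change -2.66 ± 0.67, adjusted p = 0.0039, -1.66 without mouse 5). Mice 1 and 3 lay in the vehicle range and mouse 5 lowest. Slc10a1, the bile acid uptake transporter NTCP, read 6694 to 9130.0 in vehicle and 6820.1, 3186, 5079, 1400.4 and 1305 in TS-2 mice (log2 change -1.40 ± 0.28, adjusted p = 5.2e-04). Cyp7a1, the rate-limiting enzyme of bile acid synthesis, read 488 to 2161 in vehicle and 1066, 1003, 749, 282 and 36.9 in TS-2 mice (log2 change -1.61 ± 0.56, adjusted p = 0.028), and did not pass without mouse 4 (-1.495) or mouse 5 (-0.76). Abcb4, which exports phospholipid into bile, rose in all 5 mice, at 3394, 4283, 3504, 7133 and 6150.0 against 1730.2 to 3094 in vehicle (log2 change 1.08 ± 0.16, adjusted p = 2.9e-05).

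Lipid genes differed in direction between mice. Over the 20 genes of cholesterol synthesis the median was 0.40, 0.49, 0.19, -0.59 and -1.57 in mice 1 to 5, above 0 in mice 1 to 3 and below in mice 4 and 5. Of these 3 fell (15%, near the 14.6% of all genes) and none rose by the limma test (0 rose at an unadjusted p under 0.05). The count of lower genes was 5 without mouse 1 and 1 without mouse 4, and 3 rose without mouse 5. Pmvk, phosphomevalonate kinase, read 849 to 2089 in vehicle and 1144, 448, 837, 268 and 146 in TS-2 mice (log2 change -1.67 ± 0.33, adjusted p = 5.8e-04). Sc5d, a late enzyme of the pathway, fell (log2 change -1.25 ± 0.38, adjusted p = 0.013), though not without mouse 4 (-1.01) or mouse 5 (-0.77), and Insig1, which retains the sterol sensor in the ER, fell (log2 change -1.24 ± 0.41, adjusted p = 0.021) but not without mouse 4 (-1.10), and by -0.60 without mouse 5. Of 19 genes of fatty acid synthesis 1 rose (5.26%) and 4 fell (21.1%), against 22.8% and 14.6% of all genes. The count of lower genes was 11 without mouse 1, 7 without mouse 3 and 2 without mouse 4 or mouse 5. Mlxipl, the carbohydrate-responsive factor ChREBP, fell, at 656, 406, 513, 249 and 353 against 733 to 1272 in vehicle (log2 change -1.16 ± 0.17, adjusted p = 4.2e-05). Fasn, fatty acid synthase, read 2596, 1662, 2139, 1423 and 764 against 754 to 1801 and did not pass (log2 change 0.45 ± 0.25, adjusted p = 0.17), though it did without mouse 5 (0.71).

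Lipid droplet proteins rose in 7 of 15 members (46.7%) and fell in 1 (6.67%), against 22.8% and 14.6% of all genes. Cd36, a fatty acid transporter, read 19.5 to 210.2 in vehicle and 117, 169, 99.9, 371 and 209 in TS-2 mice, at least 2.55-fold higher (log2 change 1.42 ± 0.43, adjusted p = 0.014), and did not pass without mouse 4 (1.14). Mogat1, which makes diacylglycerol, read 36.2 to 60.5 in vehicle and 113, 137, 60.4, 149.5 and 64.9 in TS-2 mice (log2 change 1.11 ± 0.18, adjusted p = 1.1e-04), with mouse 3 within the vehicle range. Pnpla2, the adipose triglyceride lipase ATGL, rose (log2 change 0.91 ± 0.19, adjusted p = 9.4e-04), at 401, 609, 427, 819.8 and 776 against 238 to 619 in vehicle, although its other probe set had the opposite sign. G0s2, the inhibitor of that lipase, fell (log2 change -1.89 ± 0.47, adjusted p = 0.0032), at 2111, 395, 634, 186 and 192 against 697 to 2653, with mouse 1 in the vehicle range.

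Of 15 genes of gluconeogenesis and glycogen 2 rose (13.3%) and 4 fell (26.7%), against 22.8% and 14.6% of all genes, and none rose without mouse 5. Gckr, the regulator of glucokinase, read 1348 to 2201 in vehicle and 1013, 544, 1020.4, 225 and 319 in TS-2 mice (log2 change -1.68 ± 0.26, adjusted p = 5.4e-05). G6pc, the glucose-6-phosphatase that releases glucose, read 2554 to 6803 in vehicle and 5556, 854, 5729, 216 and 720.4 in TS-2 mice (log2 change -1.74 ± 0.55, adjusted p = 0.017), and did not pass without mouse 4 (-1.09) or mouse 5 (-1.52). Mice 1 and 3 lay in the vehicle range for G6pc. Of 22 genes of the urea cycle and amino acid breakdown 4 rose (18.2%) and 6 fell (27.3%), with 2 higher without mouse 2 and 1 without mouse 5. Otc, the urea cycle enzyme ornithine transcarbamylase, read 3681 to 5778 in vehicle and 4234, 2346, 2651, 1689.6 and 1105 in TS-2 mice (adjusted p = 6.2e-04 in the limma fit), with mice 2 to 5 below the vehicle range. Hal, histidine ammonia-lyase, fell (log2 change -1.23 ± 0.18, adjusted p = 3.6e-05), at 2336, 1781, 2191, 895 and 1424 against 3283 to 5073, and Cth, which makes cysteine, fell evenly, at 4490.3, 4299, 4231, 3712 and 4296 against 5519 to 8145 (log2 change -0.79 ± 0.11, adjusted p = 1.3e-05). Of 18 genes of iron and haem 7 rose (38.9%), Alas1 among them, and 5 fell (27.8%). Tfrc, the transferrin receptor, fell (log2 change -1.30 ± 0.31, adjusted p = 0.0026), but its change was -0.30 averaged over its probe sets, and did not pass with vehicle mice 6 to 10 as the only controls (-0.93, adjusted p = 0.072). Id1, a target of BMP signalling, rose (log2 change 1.68 ± 0.49, adjusted p = 0.011), at 166, 901, 433, 1463 and 3638 against 126 to 592 in vehicle, but not without mouse 5 (1.14).

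Genes that are more expressed in male than in female mouse liver fell in 10 of 15 members (66.7%, against 14.6% of all genes) and rose in none by the limma test (0 rose at an unadjusted p under 0.05), with a median of -0.72. The list median was 0.09, -0.62, 0.12, -1.36 and -2.32 in mice 1 to 5, so that mice 1 and 3 were near the vehicle mean and mice 4 and 5 far below it. Elovl3, a fatty acid elongase, read 1826, 9069 and 12701 in vehicle and 8152, 182, 12425, 475 and 233 in TS-2 mice, 6.47-fold lower (log2 change -2.69 ± 0.78, adjusted p = 0.010). Mice 1 and 3 lay in the vehicle range. Ugt2b38, a glucuronosyltransferase, read 339 to 1197 in vehicle and 845, 112, 432, 48.7 and 24.1 in TS-2 mice, at least 4.47-fold lower (log2 change -2.24 ± 0.61, adjusted p = 0.0064). Slco1a1, an organic anion transporter, read 5041 to 9309 in vehicle and 5878, 2477, 5938, 716 and 702 in TS-2 mice (log2 change -1.72 ± 0.39, adjusted p = 0.0018). Hsd3b5, a hydroxysteroid dehydrogenase, read 8411 to 10842 in vehicle and 11117, 5886, 10786, 709 and 1289 in TS-2 mice (log2 change -1.36 ± 0.46, adjusted p = 0.023), with mouse 1 above and mouse 3 within the vehicle range, and did not pass without mouse 4 (-0.77) or mouse 5 (-0.99). Of 14 female-predominant genes 5 were lower (35.7%, against 14.6% of all genes) and 0 higher by the limma test (0 higher at an unadjusted p under 0.05), and 3 lower without TS-2 mice 2, 3 or 5 or vehicle mice 1, 7, 8 or 10, each left out alone.

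Of 16 genes of the growth hormone and IGF axis 2 rose (12.5%) and 5 fell (31.25%), against 22.8% and 14.6% of all genes. Growth hormone sets the sex pattern of liver genes, but its part in the falls of male-predominant or female-predominant genes was not tested. Ghr, the growth hormone receptor, read 5147, 5614 and 6785 in vehicle and 3408, 1475, 2684, 892 and 604 in TS-2 mice, 3.80-fold lower (log2 change -1.93 ± 0.27, adjusted p = 1.9e-05), with all 5 mice below the vehicle range. Igfals, which stabilises IGF1 in plasma, read 1209 to 2143 in vehicle and 1124, 596, 1118, 291 and 112 in TS-2 mice (log2 change -1.57 ± 0.37, adjusted p = 0.0025). Socs2, a direct target of growth hormone signalling, read 318 to 1265 in vehicle and 359.8, 113, 580.0, 144 and 62.1 in TS-2 mice (log2 change -1.60 ± 0.45, adjusted p = 0.0089), with mice 1 and 3 in the vehicle range. Of 16 hepatocyte identity factors 3 rose (18.75%) and 1 fell (6.25%), against 22.8% and 14.6% of all genes. Hnf4a, the central factor of that identity, read 3851 to 6089 in vehicle and 8475, 8780.4, 8675, 8125 and 11580.2 in TS-2 mice (log2 change 0.86 ± 0.11, adjusted p = 6.0e-06). The remaining hepatocyte programs lay on either side of the shares of all genes. Of 21 genes of fatty acid oxidation and PPAR-alpha targets 6 rose (28.6%) and 2 fell (9.52%). Of 14 secreted plasma proteins 4 rose (28.6%) and 3 fell (21.4%), and of 25 coagulation and complement genes 4 rose (16%) and 4 fell (16%). Pericentral genes rose in 5 (26.3%) and fell in 5 (26.3%) of 19, and periportal genes rose in 2 (11.8%) and fell in 3 (17.6%) of 17. Genes of autophagy and the lysosome rose in 6 (28.6%) and fell in 2 (9.52%) of 21. Without mouse 4 or mouse 5 only 1 secreted plasma protein and 3 pericentral genes were lower, and without mouse 5 only 2 coagulation genes. Of 18 clock genes 7 rose (38.9%) and 3 fell (16.7%), with 1 lower without mouse 2 or mouse 4.

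Markers of sinusoidal endothelial cells, which line the liver capillaries and take up much of an injected oligonucleotide, fell in 11 of 18 members (61.1%) and rose in 1 (5.56%). The shares of all genes were 14.6% and 22.8%, and the median change of the markers was -0.78. In bulk tissue, fewer cells of a type and less RNA per cell cannot be told apart. Stab1, a scavenger receptor that takes up phosphorothioate oligonucleotides, read 152, 178 and 228 in vehicle and 58.0, 63.7, 121, 66.2 and 178 in TS-2 mice (log2 change -1.05 ± 0.20, adjusted p = 4.3e-04). Oit3 read 209 to 560.4 in vehicle and 106, 122, 183, 91.7 and 181 in TS-2 mice (log2 change -1.27 ± 0.20, adjusted p = 6.7e-05), and Dnase1l3, a secreted DNase, read 335 to 874 and 132, 153, 255, 109 and 215 (log2 change -1.31 ± 0.22, adjusted p = 1.3e-04). Clec4g, a C-type lectin (log2 change -1.20 ± 0.20, adjusted p = 1.0e-04), and Fcgr2b, the inhibitory IgG receptor (log2 change -1.18 ± 0.25, adjusted p = 1.0e-03), were low in mice 1 to 4 and within the vehicle range in mouse 5. The list median was -1.01, -1.04, -0.42, -1.16 and -0.01 in mice 1 to 5, and the markers summed from 5145 to 8971 in vehicle, 3432 to 4959 in NTS-1 and 2473 to 5553 in TS-2 mice. NTS-1 mice were lower than vehicle too, with a list median of -0.54. Only 2 of the 18 markers were lower and 1 higher after TS-2 than after NTS-1, against 6.93% and 14.1% of all genes. None of the 18 was dim on all arrays.

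Markers of monocytes and macrophages were high in mouse 5. The list median was -0.13, 0.30, 0.52, 0.12 and 2.18 in mice 1 to 5, and the 17 markers summed from 3021 to 8811 in vehicle, 2847 to 4121 in NTS-1 and 3327 to 25524 in TS-2 mice. By the limma test 3 of 17 rose (17.6%, below the 22.8% of all genes) and none fell (0 fell at an unadjusted p under 0.05). Without mouse 1 the count of higher markers was 7, and without mouse 4 it was 5. The 3 that passed were the following. Cd14, the coreceptor of lipopolysaccharide, read 76.4 to 138 in vehicle and 76.7, 193, 179, 599.5 and 3495 in TS-2 mice (log2 change 1.89 ± 0.54, adjusted p = 0.0090, 1.07 without mouse 5). Laptm5, a lysosomal protein of blood cells, read 41.3 to 183 in vehicle and 117, 193, 285, 242 and 1109.5 in TS-2 mice (log2 change 1.66 ± 0.38, adjusted p = 0.0017), with 1 of 3 other probe sets of opposite sign. Cd68, a macrophage lysosome protein, read 34.7 to 138 in vehicle and 63.5, 112, 115, 177 and 456 in TS-2 mice (log2 change 1.21 ± 0.38, adjusted p = 0.016), and did not pass without mouse 5 (0.79). Mouse 5 was also highest in the list medians of acute phase, p53 and immediate early genes, and the part of these cells in those results was not tested.

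Of 12 Kupffer cell markers 1 rose and 1, Cd209f, fell (log2 change -0.33 ± 0.09, adjusted p = 0.0051), with 3 lower without mouse 5. Marco, a scavenger receptor of macrophages, read 1548 in mouse 5 and 43.6 to 125 in the others, against 28.9 to 61.6 in vehicle (log2 change 1.71 ± 0.53, adjusted p = 0.016, 0.82 without mouse 5), and Clec4f, the defining Kupffer lectin, did not pass (log2 change -0.63 ± 0.31, adjusted p = 0.12) but did without mouse 5 (-0.84). No neutrophil marker of 12 rose by the limma test (0 rose at an unadjusted p under 0.05), and 2 fell slightly, the granule proteins Camp (log2 change -0.20 ± 0.08, adjusted p = 0.049) and Mpo (log2 change -0.23 ± 0.08, adjusted p = 0.035), calls lost under 18 and 12 of 28 alternative settings. S100a8, a calcium-binding protein of neutrophils, read 26.6, 23.0, 33.1, 22.5 and 202 against 20.6 to 52.2 in vehicle and did not pass (log2 change 0.41 ± 0.42, adjusted p = 0.48). Among T and NK cell markers 0 of 10 rose by the limma test (0 rose at an unadjusted p under 0.05) and 1 fell, and among B and plasma cell markers 2 of 10 rose and 1 fell. The B and plasma cell markers summed from 7026 to 10926 in vehicle, 8281 to 12905 in NTS-1 and 11657 to 14371 in TS-2 mice, so that every TS-2 mouse lay above the vehicle mice. Most of that sum was Xbp1, which hepatocytes also express and which read 5706 to 9558 in vehicle and 10529 to 12289 in TS-2 mice (log2 change 0.63 ± 0.12, adjusted p = 5.4e-04). Of the other members Cd74 rose (log2 change 1.05, adjusted p = 0.037 in the limma fit), a call lost under 12 of 28 settings, and Jchain fell (log2 change -0.92). The B cell genes Cd79a, Cd79b, Pax5 and Cd22 had lower means and did not pass. Cholangiocyte, dendritic, erythroid, platelet, mast cell, adipocyte, pancreatic and skeletal muscle lists each had at most 2 members past the test in either direction. The adipocyte markers summed from 17636 to 20353 in vehicle, 18206 to 21141 in NTS-1 and 3073 to 19402 in TS-2 mice, and most of that sum was Car3, carbonic anhydrase 3, which male mouse liver also expresses. Car3 read 17353 to 20062 in vehicle and 2829 to 19196 in TS-2 mice and did not pass (log2 change -0.64 ± 0.30, adjusted p = 0.10). Hepatocyte markers had a median change of -0.04, with 1 of 11 higher, the apolipoprotein Apob (log2 change 0.30 ± 0.08, adjusted p = 0.0080), and 1 lower, Apoa1 (log2 change -0.15 ± 0.05, adjusted p = 0.041), whose call was lost under 17 of 28 settings.

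Stellate cell and matrix genes rose in part. Of 18 stellate cell and fibroblast markers 7 rose (38.9%) and 1 fell (5.56%), against 22.8% and 14.6% of all genes. Their summed level was 7179.8 to 12583 in vehicle, 7531 to 10409 in NTS-1 and 9012 to 17182 in TS-2 mice. Cygb, cytoglobin, a stellate cell marker, read 38.8 to 52.5 in vehicle and 56.0, 72.9, 109, 106 and 174 in TS-2 mice (log2 change 1.07 ± 0.17, adjusted p = 7.4e-05), with the groups apart. Col1a2, a chain of type I collagen, read 169 to 372 in vehicle and 307, 455, 1141, 416 and 1012 in TS-2 mice (log2 change 1.28 ± 0.27, adjusted p = 9.2e-04), and Lum, the proteoglycan lumican, read 259 to 821 and 666, 913, 1578, 1127 and 1233 (log2 change 1.22 ± 0.24, adjusted p = 5.0e-04). Col1a1, the other chain of type I collagen, was near the dim limit, at 41.4, 48.0, 95.0, 43.9 and 60.7 against 31.6 to 42.8 (log2 change 0.53 ± 0.15, adjusted p = 0.0090, 0.33 without mouse 3). Of 24 genes of the matrix 10 rose (41.7%) and 1 fell (4.17%). The neighbours Col4a1 and Col4a2, which encode the chains of the main basement membrane collagen, went in opposite directions, Col4a1 up (log2 change 1.21 ± 0.26, adjusted p = 0.0011) and Col4a2 down (log2 change -1.28 ± 0.24, adjusted p = 3.5e-04). At 72 h after 1 dose Col4a2 had changed by -2.10.

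Of 24 fetal liver, ductular and regeneration genes 9 rose (37.5%, against 22.8% of all genes) and none fell by the limma test (0 fell at an unadjusted p under 0.05). Krt8, a keratin of hepatocytes and ducts, read 2400.5, 3170.2 and 4253 in vehicle and 4331, 13413, 6051, 17974 and 15823 in TS-2 mice, 3.14-fold higher (log2 change 1.65 ± 0.26, adjusted p = 5.7e-05), with all 5 mice above the vehicle range. Ccn2, the connective tissue growth factor, read 81.7 to 209 in vehicle and 211, 494, 385, 229.8 and 1079 in TS-2 mice (log2 change 1.65 ± 0.33, adjusted p = 5.7e-04). Lgals3, galectin 3, which macrophages also make, read 68.0, 199, 242, 259 and 2476 against 54.7 to 131 in vehicle (log2 change 1.77 ± 0.50, adjusted p = 0.0086, 0.999 without mouse 5). Afp, alpha-fetoprotein, was raised most in mice 4 and 5, at 38.7, 65.0, 17.6, 618 and 197 against 16.0 to 46.6 in vehicle (log2 change 1.85 ± 0.53, adjusted p = 0.0097, 1.15 without mouse 4). The change of Afp was 0.66 averaged over its probe sets, and 0.40 with the probe set highest on the 2-week arrays, which did not pass (adjusted p = 0.17 in the limma fit). Krt19, the duct cell keratin, read 26.3, 45.7, 63.1, 29.3 and 42.4 against 30.7 to 73.2 and did not pass (log2 change -0.06 ± 0.21, adjusted p = 0.85).

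**Figure D4:**
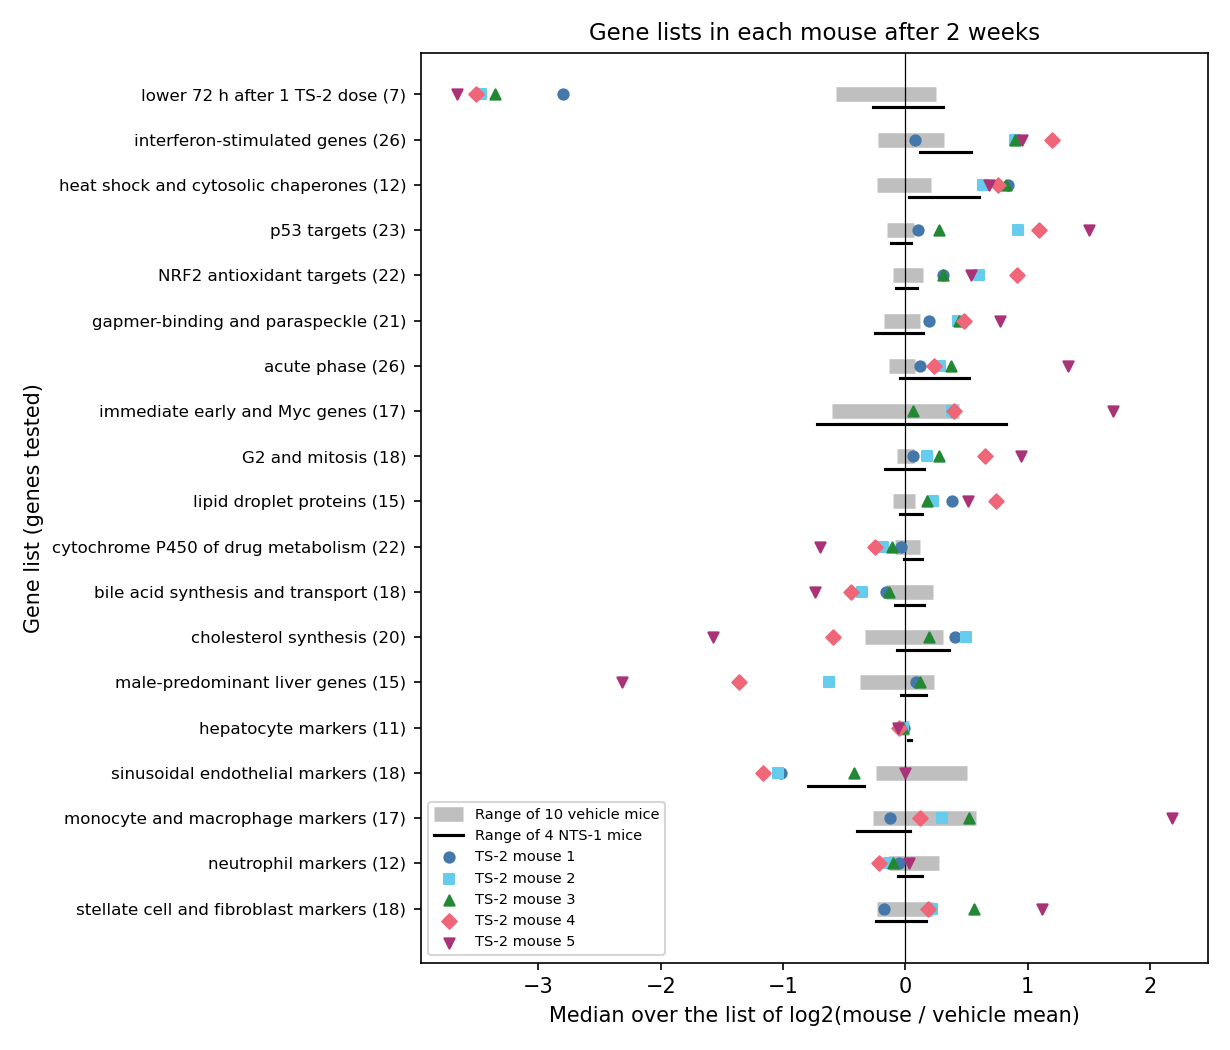
Median over each gene list of the log2 ratio of a mouse to the vehicle mean, 1 symbol per TS-2 mouse, with the range of the 10 vehicle mice as a grey bar and that of the 4 NTS-1 mice as a black line, and the number of genes tested in brackets. The list lower 72 h after 1 TS-2 dose lies at -2.80, -3.47, -3.36, -3.51 and -3.67 in mice 1 to 5, whereas the p53, male-predominant and cholesterol lists are spread widely between mice, and of the TS-2 mice only mouse 5 lies above the vehicle range in the macrophage list. TS-2 levels of several genes of the list lower at 72 h were dim, which may compress its range.

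TS-2 was set against NTS-1 in the same fit to ask where the 2 gapmers differed. Of the 14454 genes 3038 passed (21.0%), 2036 higher (14.1%) and 1002 lower (6.93%) after TS-2. The share of higher calls was 67.0%, or 50.3% after quantile normalization. The count moved with the NTS-1 mice, with 1918 genes without NTS-1 mouse 1 and 1971 without NTS-1 mouse 4. Among genes whose TS-2 and NTS-1 mice did not overlap, the largest differences below NTS-1 were those of Mtss1 (log2 difference -4.74 ± 0.33, adjusted p = 2.7e-08), Cadps2 (log2 difference -4.10 ± 0.14, adjusted p = 1.7e-13), Cxadr (log2 difference -3.54 ± 0.31, adjusted p = 5.8e-07), Fhit (log2 difference -3.39 ± 0.46, adjusted p = 1.5e-04), Memo1 (log2 difference -3.25 ± 0.35, adjusted p = 7.6e-06) and Sntb1 (log2 difference -3.22 ± 0.50, adjusted p = 4.4e-04). NTS-1 mice read 877 to 1388 for Mtss1 and 379 to 433 for Cadps2, within the vehicle range in both. The largest above it were 2010003K11Rik (log2 difference 2.95 ± 0.42, adjusted p = 2.2e-04), Socs3 (log2 difference 2.70 ± 0.65, adjusted p = 0.0076), Btg2 (log2 difference 2.68 ± 0.67, adjusted p = 0.0090), Ly6d (log2 difference 2.53 ± 0.70, adjusted p = 0.016), Ccn2 (log2 difference 2.44 ± 0.40, adjusted p = 7.7e-04) and Nudt18 (log2 difference 2.37 ± 0.34, adjusted p = 2.1e-04).

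Counts in lists are set here against the 14.1% of all genes that were higher and the 6.93% that were lower after TS-2 than after NTS-1. Among the lists, p53 targets were higher after TS-2 than after NTS-1 in 15 of 23 members and NRF2 targets in 13 of 22. Cdkn1a read 326 to 428 in NTS-1 mice and differed from TS-2 (log2 difference 2.52 ± 0.69, adjusted p = 0.015), and Srxn1 read 255 to 470.1 (log2 difference 2.08 ± 0.36, adjusted p = 0.0010). The NTS-1 levels of Cdkn1a lay at the top of the vehicle range or above it, and TS-2 mouse 1 lay just under them. P450 genes were lower after TS-2 in 11 of 22 members, Cyp2b10 among them (log2 difference -3.21 ± 0.42, adjusted p = 1.1e-04), and male-predominant genes in 7 of 15. Stellate cell markers were higher in 8 of 18. Acute phase genes were higher in 5 of 26, and neither Lcn2 (log2 difference 2.26 ± 1.01, adjusted p = 0.11) nor Saa1 (log2 difference 0.50 ± 0.53, adjusted p = 0.52) passed. The vehicle and NTS-1 comparisons share the TS-2 mice, so agreement between them is not a separate result.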

How the data were processed

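Per the labels, each array took biotin-labelled RNA of 1 liver, isolated by RNeasy and amplified in a single round. The deposited values are array intensity values on a linear scale, which per the submitters' processing notes the authors made with RMA, of a version the sources used do not give. They were converted to log2. Genes came from the platform annotation: 34958 probe sets had 1 gene, 932 several and 9211 none, only the first were used, and 34754 matched by gene ID. The probe set with the highest mean over all 56 arrays stood for a gene (18195 genes). Genes had to reach their array's 40th percentile on 3 or more arrays to be tested, and 3741 did not. The 19 arrays of the 2-week study were fitted with limma 3.58.1 in R 4.3.3 as 3 groups that share 1 estimate of the spread, with Benjamini-Hochberg adjustment at 0.05. The 37 single-dose arrays were fitted apart. No pair of 171 arrays held identical values. Precision is limited by how many arrays each group has.

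The 54 gene lists (809 of 948 members tested) and the members of every list were chosen with earlier results of these data known, and lists are described by counts and medians without a test. Named genes were a panel of 30 (27 measured), the 12 largest rises and falls past the test among genes whose groups did not overlap and whose higher group was nowhere under 32, from each list up to 4 genes that passed and moved most, under the same brightness rule, and the 6 largest differences from NTS-1 in each direction. Genes beyond these were named after their values were seen where so stated. The fit was tested on simulated data of 14454 genes for the comparison of TS-2 with vehicle. It found 92% of 100 genes set to change 2-fold, 100% of 100 set to change 4-fold, and 13 unchanged genes. Far fewer genes were set to change than the 5405 called in the data, so these figures give no error rates here. How the fit performs where TS-2 mice vary more than vehicle mice was not shown by it. Replicate numbers of the labels did not pair the mice: correlations of deviations between TS-2 and vehicle mice of 1 number were -0.10, 0.18, 0.04, 0.07 and -0.17. Alternatives were other choices of probe set, filter, normalization, variance prior, array weights, controls and covariate, a replicate block, and each mouse left out.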

Additional observations from a re-analysis of the deposited data

Results flagged for a closer look

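Among 136 genes of the text, each checked in the 10 vehicle and the 5 TS-2 mice (272 checks), 16 had 1 mouse far from the others of its group by Dixon's gap test, where chance alone gives about 1 in 20. The test ran on the log2 scale. Vehicle mouse 2, the array that stood apart in all genes, was the low value in 7 of them: Cth at 5519, Cxadr at 163, Dpyd at 3425, Nucks1 at 921, Sntb1 at 131, Tmf1 at 73.3 and Zfp24 at 190.4. Vehicle mouse 7 was high for Dnase1l3 (874) and Pnpla2 (619) and low for Elovl3 (1826) and Rmdn1 (909). Of the other vehicle mice, mouse 8 was high for Ghr (6785), mouse 5 low for Mki67 (21.1, where all vehicle mice were dim) and mouse 1 high for Tgm1 (104). TS-2 mouse 5 was high for Hnf4a, at 11580.2 with the next at 8780.4, and for the neutrophil gene S100a8, at 202 with the next at 33.1.

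Ccn2, the connective tissue growth factor, lay on opposite sides of the vehicle mean at the 2 times. All 4 TS-2 mice lay below the vehicle mean 72 h after 1 dose, with a mean change of -0.34 ± 0.73 (SE) on the log2 scale that did not pass the test, and all 5 lay above it after 2 weeks, with 1.65. The difference between the times was not tested.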

How the results depend on the processing

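Against vehicle, the counts of genes called, higher and lower stayed within 1.5 times of those reported under the alternatives run, except that the fit with the replicate block called 1401 lower (4184 in all). That fit takes TS-2 mice only with vehicle mice of the same number, so vehicle mice 6 to 10 add nothing to the contrast, and the numbers did not pair the mice. Leaving out 1 mouse gave 4450 to 5681 genes, 2765 to 3468 higher and 1685 to 2233 lower. Against NTS-1, the compared groups alone gave 1514 genes (1123 higher, 391 lower), and the replicate block 1066 (719 higher, 347 lower). The fit of the compared groups alone has fewer arrays and also leaves the spread of the vehicle mice out of the shared estimate. Which of these lowered the count was not tested. Against vehicle, the compared groups alone gave 5269 genes. Leaving out 1 mouse gave 1918 to 3917 genes, 1270 to 2565 higher and 648 to 1352 lower. Vehicle mice 1 to 5 alone gave 4516 genes and 6 to 10 alone 3990. Of 199 genes followed 189 passed, of which 115 passed under all 28 settings and 74 were lost under at least 1, and the cause was not tested. Direction turned for 5 genes. Alb read 0.0012 with quantile normalization and 0.0093 with 1 array median. Cyp4a14 read -0.042 with quantile normalization and -0.11 with the replicate block or with vehicle mice 1 to 5 alone. Gp1bb, a platelet marker, read 0.079 with the mean of its probe sets against -0.27. Krt19 read 0.034 with array weights and 0.13 with vehicle mice 6 to 10 alone, and S100a8 read -0.024 with array weights. With 1 mouse left out Cyp4a14 ranged from -0.30 to 0.75, Krt19 from -0.23 to 0.086 and S100a8 from -0.18 to 0.61. Counts of 1 or 2 members of a list often moved with single mice, and nothing is drawn from them. Dim genes have only bounds.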
